A study of Mus musculus with 6 samples.

Results

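The transcripts described here encode 7 chemoattractant receptors of myeloid cells, the chemokine receptors Ccr1, Ccr2, Ccr7, Cx3cr1, Cxcr2 and Cxcr4 and the chemokine receptor-like gene Ccrl2. They were chosen by name among 19938 genes that carry 1 symbol on the array, and each had a single probe set. The choice of these genes and of the gene lists below was made with earlier results of these data known. Their counts beside the shares over all genes are therefore descriptions and not independent tests. The formyl peptide receptor genes Fpr1 and Fpr2 belong to the same set of 9 names and are not analysed here.

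Chemokine receptors are G protein-coupled receptors that steer leukocytes along gradients of chemokines. Cxcr2 and Ccr1 are typical of neutrophils and draw them to inflamed tissue, Ccr2 brings classical monocytes out of bone marrow and into tissue, and Cx3cr1 marks nonclassical monocytes that patrol vessels. Cxcr4 retains myeloid cells in marrow, Ccr7 guides mature dendritic cells and T cells to lymph nodes, and Ccrl2 binds chemerin without signalling itself.

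Messenger RNA was profiled on 6 mouse arrays in 2 groups of 3. All C57BL/6 mice carried EL4 tumours, a transplantable mouse lymphoma, and so did the controls. One group received PBS, although its labels also read untreated, and the other received type IV concanavalin A, shortened to Con A, a lectin of jack bean that stimulates T cells and injures the liver. Myeloid cells positive for CD11b and Gr-1, called myeloid-derived suppressor cells in the labels, were sorted from liver 3 hours later. The dose of Con A is given both as 12.5 mg/kg and as 12.5 ug/kg. No source used here gives the ages of the mice or says whether RNA was pooled. The p-values thus measure the spread between arrays, which may be technical.

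Levels are log2 values, so a difference of 1 is a 2-fold change, and differences are Con A minus PBS. Array medians lay between 7.05 and 7.08. Itgam, which encodes CD11b, was at 12.73 to 13.06 in all arrays, and Ly6g, part of the Gr-1 epitope, at 13.46 to 13.69. The 12 granulocytic markers had 0 members past the test. Their summed level (log2 of the sum of linear values) was 16.85 to 16.98 after PBS and 16.89 to 16.93 after Con A. Ly6g and most of these markers lay near the top of the scale, where the highest values of an array were 14.2 to 14.3 and differences are compressed. Flat values there cannot show that granulocyte content was unchanged. Some arrays stood apart. PBS replicate 3 was the PBS array with the highest Ccrl2, Ccr1 and Ccr7, and the comparisons are therefore also given without it. Con A replicate 2 had the highest Kupffer cell markers, with a mean level of 8.77 over 10 genes against 6.98 to 7.58 in the other arrays. The same array had the highest hepatocyte markers, with a mean of 7.86 over 7 genes against 6.82 to 6.97 in the others and the albumin gene Alb at 11.17 against 8.69 to 9.10, and the lowest NK cell markers, with a mean of 7.17 against 7.98 and 8.31 in the other Con A arrays. Of 8 T cell markers 0 passed the test. Cd3e stayed between 7.12 and 7.36, while Il7r, the interleukin-7 receptor gene, ran from 6.97 to 9.86.

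The comparison asks how the homing receptors of these cells differed 3 hours after Con A. Of the 7 receptor genes, 3 fell, 0 rose and 4 did not pass the test (limma, Benjamini-Hochberg adjusted p under 0.05 over all genes). Ccr2 and Cx3cr1 fell 4.01-fold and 3.50-fold, and Cxcr4 fell 1.69-fold. Over all 19938 genes, 7.22% were lower and 4.59% were higher by the same test. Each of the 7 was brighter on average than at least 66.8% of genes. In a refit of only the genes at or above the median level, 1480 were lower and 886 higher. The shares over all genes are thus smaller than those among bright genes. The same 3 receptor genes passed in that refit. The arrays of both groups did not overlap for 6 of the 7 genes, 3 lower and 3 higher after Con A. Of all genes 29.9% were separated, 15.6% lower and 14.4% higher. The gap between the groups was 0.54 to 1.39 for the 3 lower genes. For the 3 higher ones it was only 0.004 (Ccr1), 0.014 (Cxcr2) and 0.019 (Ccrl2), so these were barely separated. Without PBS replicate 3, 5 of the 7 passed, with Ccr1 and Ccrl2 higher beside the same 3 lower. That array had the highest Ccr1 and Ccrl2 of the PBS arrays, so leaving it out raises their differences by the choice itself. In that fit 2765 of all genes passed, against 2355 with all arrays. With any other single array left out 3 receptor genes passed, all lower.

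**Figure D1:**
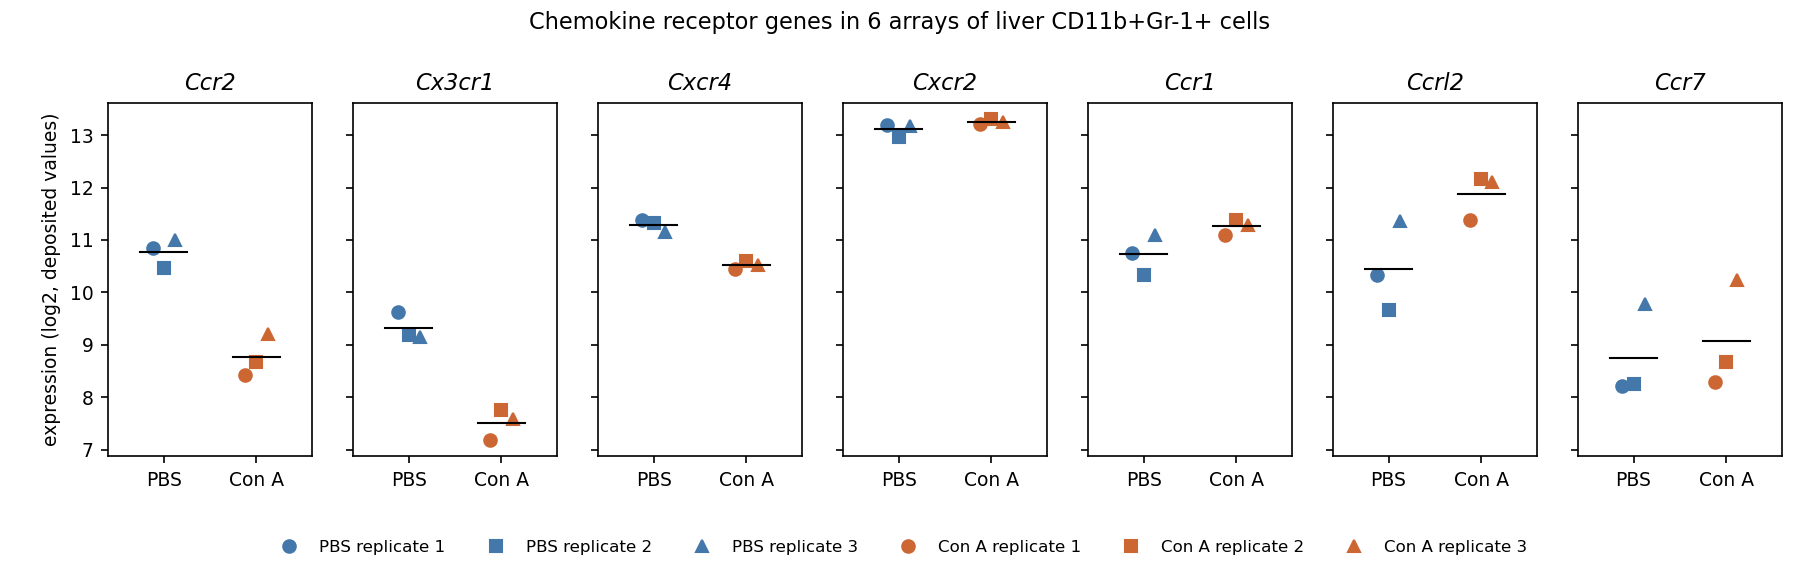
Deposited log2 expression of 7 chemokine receptor genes, with 1 point per array and a bar at the mean of each group (n = 3). Ccr2, Cx3cr1 and Cxcr4 are lower in every Con A array than in any PBS array, and Ccr7 is high in the third array of both groups. Levels of different genes are not comparable, since they come from different probes.

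Ccr2, the receptor for CCL2 and CCL7, had the largest difference of the 7. It stood at 10.85, 10.47 and 11.00 in PBS replicates 1, 2 and 3 and at 8.43, 8.67 and 9.21 in the Con A arrays. The lowest PBS array exceeded the highest Con A array by 1.26, a wider gap than the span of either group. Ccr2 (probe set 10590631) fell by 2.00 ± 0.21 (SE; 95% interval -2.51 to -1.50; limma adjusted p = 0.00177). With each array left out in turn the difference ranged from -2.23 to -1.84 and the adjusted p from 0.00203 to 0.0153, and the call held each time. The fall was 1.89 without PBS replicate 3.

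Cx3cr1, the receptor for the membrane-bound chemokine fractalkine, was at 9.62, 9.19 and 9.14 after PBS and at 7.19, 7.75 and 7.60 after Con A. Again every Con A array lay below every PBS array, with a gap of 1.39. Cx3cr1 (probe set 10597743) fell by 1.81 ± 0.18 (SE; 95% interval -2.22 to -1.39; limma adjusted p = 0.00148). Its Con A levels were close to the array medians, and there are no detection calls to tell such levels from background. Without PBS replicate 3 the difference was -1.89, and the call held with any 1 array left out.

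Cxcr4, the receptor for CXCL12, was at 11.38, 11.32 and 11.15 after PBS and at 10.44, 10.61 and 10.53 after Con A. Its replicates were the tightest of the 3 lower genes, with SDs of 0.12 and 0.08. Cxcr4 (probe set 10357472) fell by 0.76 ± 0.09 (SE; 95% interval -0.96 to -0.55; limma adjusted p = 0.0024). The difference was -0.82 to -0.71 with 1 array left out, the first without PBS replicate 3, and the call held each time.

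Markers of monocytes, the cells that carry most CCR2 and CX3CR1, were read in the same arrays. Over all genes 7.22% were lower and 4.59% higher by the same test. Of 9 classical monocytic markers, 2 fell, F13a1 by 2.16 and Fn1 by 0.72, and 1 rose, the interferon-induced factor gene Irf8 by 0.98. Their median difference was -0.72, and the summed level was 14.20 to 14.66 after PBS and 13.39 to 14.02 after Con A. All 8 nonclassical markers had lower means after Con A, and 5 of them passed the test, Ace (-1.12), Eno3 (-1.11), Pou2f2 (-0.86), Cd300e (-0.70) and Itgal (-0.49). Nr4a1, a factor that nonclassical monocytes need, differed by -0.13 (adjusted p = 0.619). The nonclassical median was -0.73, and the summed level was 14.00 to 14.37 after PBS and 13.47 to 13.90 after Con A. Without PBS replicate 1 the counts of genes past the test were 1 and 3 in these lists, and without Con A replicate 3 the nonclassical count was 3. In bulk RNA of a mixed sort, fewer cells of a type and less RNA per cell cannot be told apart. The part of monocyte number in the lower Ccr2, Cx3cr1 and Cxcr4 was not tested.

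**Figure D2:**
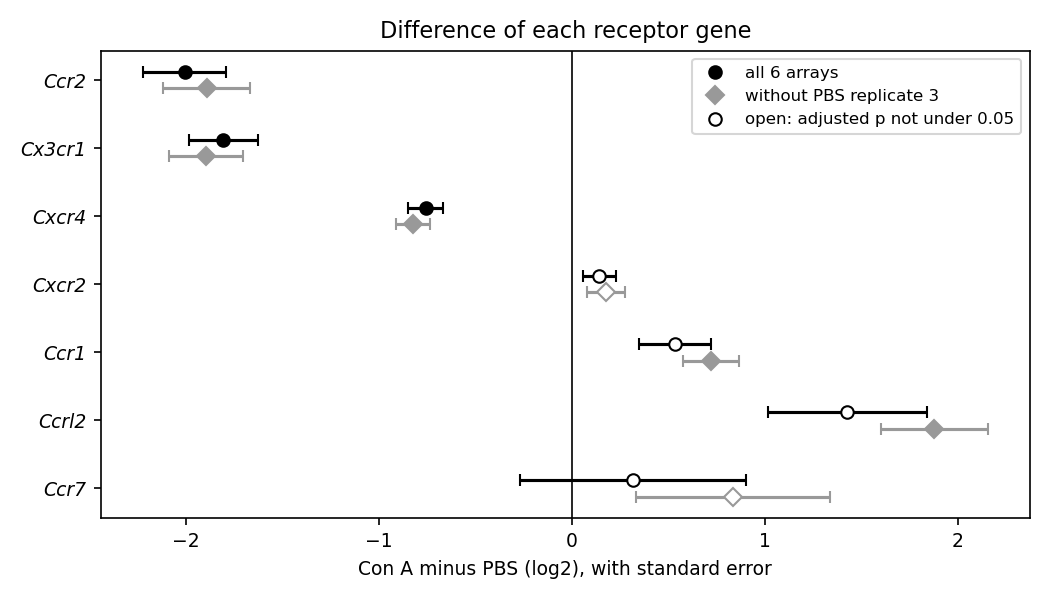
Difference of each receptor gene, Con A minus PBS on the log2 scale, with its standard error, from all 6 arrays (circles) and without PBS replicate 3 (diamonds). Filled symbols passed the adjusted test. Ccr2, Cx3cr1 and Cxcr4 passed in both fits. Ccr1 and Ccrl2 passed without PBS replicate 3, the PBS array in which both were highest, and did not pass with any other single array left out.

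Upstream sequences are shown for the 3 genes that fell and for Ccrl2, which had the largest difference in the other direction. RefSeq start sites on assembly GRCm38.p6 gave a promoter for 6 of the 7 genes. The 250 bases before the most upstream start listed for each gene were searched on both strands for 4 motifs. These were an NF-kB consensus (GGG and CC around any 5 bases) and a PU.1 core (GAGGAA). Also searched were an ISRE core (GAAA given again after any 2 bases) and an AP-1 core (TGANTCA). Each sequence is written 5′ to 3′ on the gene's strand with matches in capitals, and for Ccr2, whose window lies inside the span of the gene in the RefSeq table, only the last 30 bases before its start are given. They lie at chr9:124102153-124102182 (Ccr2, plus strand), chr9:120068297-120068546 (Cx3cr1, minus strand), chr1:128592300-128592549 (Cxcr4, minus strand) and chr9:111057519-111057768 (Ccrl2, minus strand).
Ccr2: gatctgttactgagaagcctgagatagcag
Cx3cr1: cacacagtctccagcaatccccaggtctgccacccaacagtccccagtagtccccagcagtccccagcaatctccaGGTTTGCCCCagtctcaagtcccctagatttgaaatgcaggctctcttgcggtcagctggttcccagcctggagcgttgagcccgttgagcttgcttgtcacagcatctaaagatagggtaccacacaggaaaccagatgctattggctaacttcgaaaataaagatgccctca
Cxcr4: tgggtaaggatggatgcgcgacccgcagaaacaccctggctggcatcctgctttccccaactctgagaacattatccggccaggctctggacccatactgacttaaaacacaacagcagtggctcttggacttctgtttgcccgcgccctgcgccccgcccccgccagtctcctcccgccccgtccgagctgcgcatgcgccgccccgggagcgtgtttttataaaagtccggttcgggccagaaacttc
Ccrl2: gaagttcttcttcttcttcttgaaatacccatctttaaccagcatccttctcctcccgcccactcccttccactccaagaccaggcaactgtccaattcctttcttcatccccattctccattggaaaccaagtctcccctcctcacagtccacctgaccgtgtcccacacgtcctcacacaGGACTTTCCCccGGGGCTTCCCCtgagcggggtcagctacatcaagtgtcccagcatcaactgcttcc
In Ccrl2 the NF-kB letters matched at 3 positions, of which 2 overlap, and in Cx3cr1 at 1 position. Ccr1 and Cxcr2 had 1 NF-kB match and 1 PU.1 match each. In the window of Cxcr4 none of these 4 motifs was found. None was found in that of Ccr2 either, but it lies inside the gene span and not before the whole gene. The NF-kB letters occur in 45.4% of 27018 mouse promoters of the same length, the PU.1 core in 23.1%, AP-1 in 6.85% and ISRE in 3.05%, so a match is a description of these letters and not of a bound site.

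Of the neutrophil receptors, Cxcr2 was at 13.19, 12.96 and 13.18 after PBS and at 13.21, 13.31 and 13.24 after Con A. Its difference of 0.14 (95% interval -0.06 to 0.35; limma adjusted p = 0.373) did not pass the test, and it was 0.07 without PBS replicate 2, the lowest array (adjusted p = 0.74). These levels lie near the top of the scale, where the highest values of an array were 14.2 to 14.3 and differences are compressed. Cxcr1, its close relative, differed by 0.48 (adjusted p = 0.183).

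Ccr1, a receptor for CCL3, CCL5 and CCL7, was at 10.75, 10.33 and 11.10 after PBS and at 11.10, 11.39 and 11.29 after Con A. PBS replicate 3 and Con A replicate 1 were nearly equal, 0.004 apart. The difference was 0.53 (95% interval 0.10 to 0.97; limma adjusted p = 0.123) and missed the threshold. It was 0.72 without PBS replicate 3 (adjusted p = 0.0174) and 0.33 without PBS replicate 2, the lowest array (adjusted p = 0.225).

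Ccrl2, an atypical receptor that neutrophils and macrophages increase when activated, was at 10.34, 9.67 and 11.36 after PBS and at 11.38, 12.17 and 12.10 after Con A. The pattern was that of Ccr1 with a wider span, and PBS replicate 3 lay 0.02 below Con A replicate 1. The difference was 1.43 ± 0.41 (SE; 95% interval 0.47 to 2.39), a 2.69-fold higher mean that missed the threshold (limma adjusted p = 0.0692). Without PBS replicate 3 Ccrl2 was higher by 1.88 (adjusted p = 0.00451), and without PBS replicate 2 by 1.03 (adjusted p = 0.133). Kupffer cell markers had higher means after Con A in 10 of 10 genes, with 0 past the test. Over all genes 4.59% were higher and 7.22% lower by the test. The summed Kupffer level was 10.45 to 10.95 after PBS and 10.46 to 12.42 after Con A. The mean marker level was 7.03 in Con A replicate 1, within the PBS range of 6.98 to 7.40, and 8.77 in Con A replicate 2. The defining markers Clec4f and Vsig4 reached 9.18 and 10.12 in Con A replicate 2. Without that array Ccrl2 differed by 1.28 (limma adjusted p = 0.226), and without Con A replicate 3 by 1.32 (adjusted p = 0.183). The part of Kupffer cells in the Ccrl2 values was not tested.

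Ccr7 differed more within the groups than between them. It stood at 8.22, 8.25 and 9.78 after PBS and at 8.28, 8.68 and 10.24 after Con A. The third array of each group was the high one, and the groups overlapped. The difference was 0.32 (95% interval -1.05 to 1.68; limma adjusted p = 0.8) and was -0.27 without Con A replicate 3 and 0.83 without PBS replicate 3. Over 9 dendritic cell markers the mean level was 8.19 and 8.32 in these PBS and Con A arrays against 7.38 to 7.76 in the other 4. Not every marker followed this order. Clec9a had its lowest PBS value, 6.70, in PBS replicate 3, Siglech its lowest value, 6.47, in Con A replicate 3, and Flt3 was not highest in Con A replicate 3. Named after their values were seen, Ccl22, a chemokine gene of mature dendritic cells, was at 10.65 and 11.04 in those arrays and 7.71 to 9.46 in the others. Cd209a, a lectin gene of monocyte-derived dendritic cells, was at 11.13 and 11.52 against 9.14 to 9.37. The list's first markers, Flt3 at 6.72 to 6.90 and Zbtb46 at 7.12 to 7.86, stayed near the array medians, and 0 of the 9 markers passed the test. The summed dendritic level was 10.82 to 12.37 after PBS and 10.96 to 12.69 after Con A, and the part of dendritic cells in the Ccr7 values was not tested. Il7r, from the T cell list, was also highest in these arrays, at 9.86 and 9.64 against 6.97 to 8.25.

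**Figure D3:**
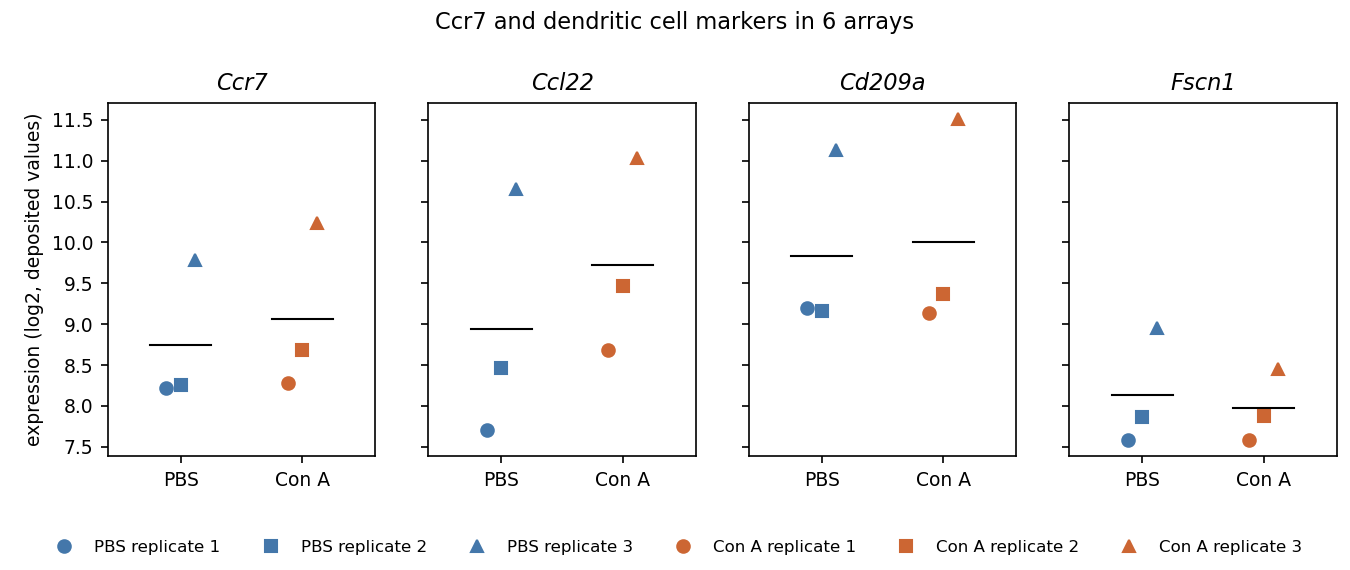
Deposited log2 expression of Ccr7 and of the dendritic cell markers Ccl22, Cd209a and Fscn1, chosen from 9 after their values were seen, with 1 point per array and a bar at the group mean (n = 3). The third array of each group (triangles) is the highest for all 4 genes; of the markers not plotted, Clec9a, Siglech and Flt3 do not share this in both groups.

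The genes whose profile over the 6 arrays was most like a receptor's were found by the root mean square difference of the log2 values after each gene was centred on its own mean. For Ccr2 they were Otulinl at a distance of 0.11, Cd180 at 0.15 and Abi3 at 0.17. Cd180, a Toll-like receptor homologue, was at 10.24, 9.93 and 10.43 after PBS and at 7.60, 7.92 and 8.25 after Con A. For Cx3cr1 the nearest were the integrin gene Itgb5 at 0.15 and Cd101 and Nxpe4, both at 0.19. For Ccrl2 they were the nucleotide receptor gene P2ry13 at 0.12, the beta-glucan receptor gene Clec7a at 0.15 and the guanylate-binding protein gene Gbp3 at 0.16. P2ry13 was at 10.34, 9.82 and 11.23 after PBS and at 11.50, 12.40 and 12.20 after Con A, so PBS replicate 3 was again the highest PBS array. These distances are descriptions over 6 arrays, which share the 2-group design.

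Ccr1, Ccr2, Ccrl2 and Cx3cr1 lie on mouse chromosome 9 with other chemokine receptor genes. In the RefSeq gene order of GRCm38.p6, Ccr1, Ccr1l1, Ccr3 and Ccr2 follow each other with 0 other protein-coding genes between them. Ccr2 fell, while its measured neighbour Ccr3, the eotaxin receptor gene of eosinophils, differed by 0.75 (adjusted p = 0.121), Ccr1l1 by 0.34 and Ccr1 by 0.53, none past the test. Next to Cx3cr1 lies Ccr8, which differed by -0.01 (adjusted p = 0.951) at 5.26 to 5.43. Of the 11 measured genes of this group, 2 fell and 0 rose, against 7.22% lower and 4.59% higher over all genes. Among those that did not pass, 6, Ccr1l1, Ccr4, Ccr8, Ccr9, Cxcr6 and Xcr1, were at 5.26 to 6.17, below the array medians.

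**Figure D4:**
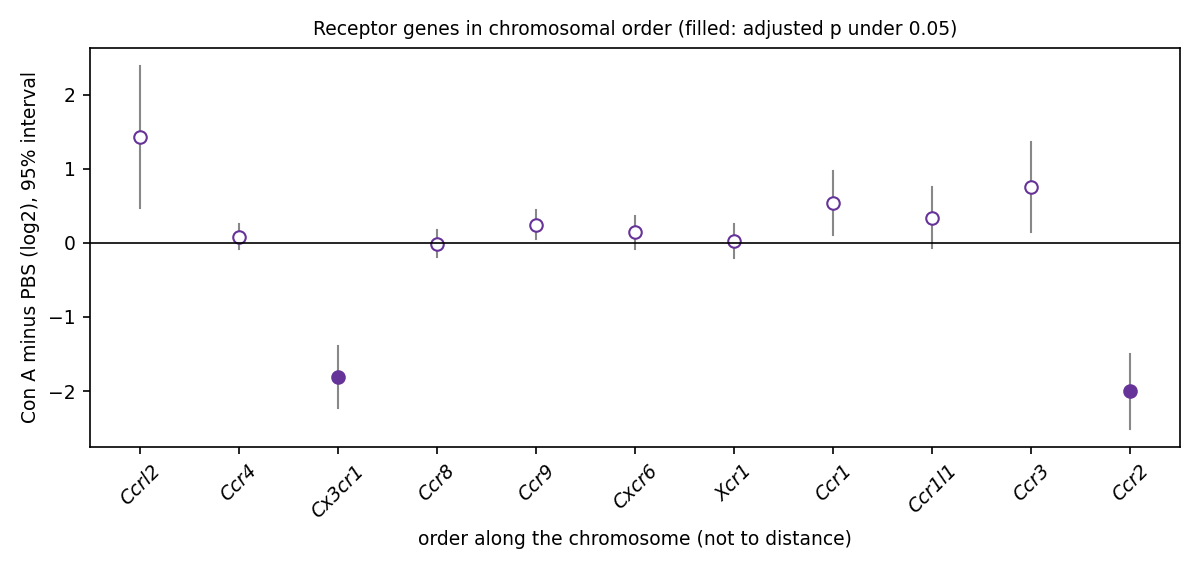
Difference of 11 chemokine receptor genes of mouse chromosome 9, Con A minus PBS on the log2 scale with its 95% interval, in chromosomal order and not to distance. Ccr2 and Cx3cr1 are the filled points, at -2.00 and -1.81, and their neighbours are not past the test.

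Among 28 other measured chemoattractant receptor genes, 2 rose and 1 fell, with a median difference of 0.07 against 0.02 over all genes. By the same test 11.8% of all genes passed in either direction, 4.59% higher and 7.22% lower. C3ar1, the receptor gene for complement C3a, rose from 9.36 ± 0.28 to 10.62 ± 0.39 (mean ± SD, n = 3), by 1.26 (limma adjusted p = 0.01). Ptafr, the receptor gene for platelet-activating factor, rose by 0.49 (adjusted p = 0.0299). C5ar2, an atypical receptor for C5a that does not couple to G proteins, was at 11.50, 11.31 and 11.26 after PBS and at 10.24, 10.11 and 10.35 after Con A, a fall of 1.13 (adjusted p = 0.000992). The signalling receptor gene C5ar1, named beside it after its values were seen, differed by 0.07 (95% interval -0.10 to 0.24; adjusted p = 0.598). Without PBS replicate 3, 4 genes of this list rose and 1 fell, and without PBS replicate 1, 0 rose and 1 fell.

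A list of chemoattractant ligands holds ligands of these receptors and, with Anxa1, Saa1, Saa3 and Camp, of the formyl peptide receptors. Of its 22 measured genes, against 4.59% higher and 7.22% lower over all genes, 4 rose and 0 fell, with a median difference of 0.17. They were Cxcl3 by 2.32, Ccl4 by 1.84, Ccl7 by 1.77 and Cxcl2 by 1.23 (adjusted p = 0.0167, 0.0187, 0.0234 and 0.03 by limma). Cxcl2 and Cxcl3 encode attractants of neutrophils that act on CXCR2. Cxcl2 was at 11.84, 11.33 and 12.57 after PBS and at 12.98, 13.21 and 13.23 after Con A. Ccl7, a ligand of CCR2 and CCR1, was at 7.50, 7.24 and 7.38 after PBS and at 8.25, 9.97 and 9.20 after Con A. Ccl2, which also encodes a CCR2 ligand, differed by 0.73 (limma adjusted p = 0.135) and did not pass, and its groups overlapped. The ligand genes of the other receptors that fell did not pass the test in these cells either. Cx3cl1 differed by 0.03 (95% interval -0.35 to 0.41) and Cxcl12 by 0.09 (95% interval -0.07 to 0.25), at 6.43 to 7.19 in all arrays. The count of ligand genes past the test was 0 without PBS replicate 1, 0 without Con A replicate 3, 1 without Con A replicate 2, 2 without PBS replicate 2 and 6 without PBS replicate 3.

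Genes that carry or end the receptor signal were counted next. The list holds 32 measured genes of G protein coupling, phosphoinositide signalling, Rac activation, receptor kinases, arrestins and RGS proteins. Of these, 12 fell and 0 rose, with a median difference of -0.22 against 0.02 over all genes. By the same test 7.22% of all genes were lower and 4.59% higher. The list was bright, with a mean level of 10.89 to 11.25 per array, and calls were more frequent among bright genes. In the refit of only the genes at or above the median level, 14 list genes fell, and 1480 of all genes kept were lower. Rgs2 and Rgs3, which speed the turnoff of G proteins, fell by 1.57 and 1.23 (limma adjusted p = 0.0035 and 0.000513). Rgs3 was at 11.70, 11.55 and 11.64 after PBS and at 10.39, 10.47 and 10.36 after Con A, so that the groups were 1.08 apart. Arrb1, which encodes beta-arrestin 1, an adaptor that uncouples and internalises receptors, fell by 0.86 (adjusted p = 0.00191), and Rgs14 fell by 0.85 (adjusted p = 0.00703). Chosen after their values were seen, Pik3cg, the PI3-kinase gamma gene that chemokine receptors activate, and Prex1, a Rac exchange factor gene, fell by 0.77 and 0.71 (adjusted p = 0.00203 and 0.00567). The core G protein gene Gnai2 differed by -0.06 (95% interval -0.22 to 0.09; adjusted p = 0.616), and Rac1 by -0.02 (adjusted p = 0.892). Rgs1 had the largest difference upward, 1.15, and missed the threshold (adjusted p = 0.15). All these values come from the same mixed sort, and the part of cell content in the lower signalling genes was not tested.

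The count of 12 lower signalling genes was 6 without PBS replicate 1, without Con A replicate 2 or without Con A replicate 3, and 7 without PBS replicate 2 or without Con A replicate 1. Without PBS replicate 3, 12 fell and 1 rose.

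**Figure D5:**
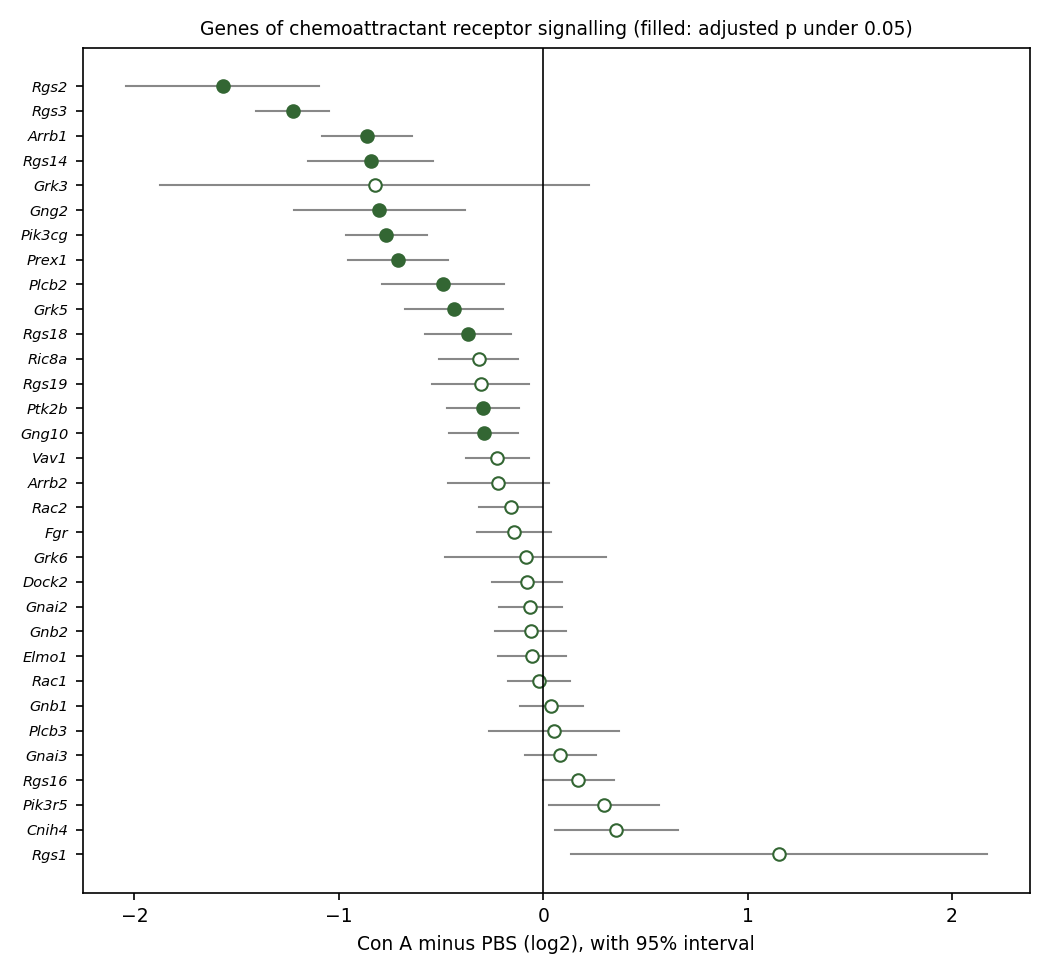
Difference of 32 genes of chemoattractant receptor signalling, Con A minus PBS on the log2 scale with its 95% interval. The 12 filled points passed the adjusted test and all lie below 0, from Rgs2 at -1.57 to Gng10 at -0.29.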

How the data were processed

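The authors deposited log2 values, 1 per probe set of a mouse Affymetrix array (total RNA, whole-transcriptome amplification, biotin label, per the labels). RMA and Partek are named in the submitters' processing notes, without versions. RMA summarises probes on the log2 scale and compresses differences at both ends. Of 35556 rows, 21789 had 1 gene symbol. For a symbol with several rows the brightest on average was kept, which left 19938 genes. Con A and PBS were compared with limma 3.58.1 (R 4.3.3; lmFit and eBayes, two-sided, Benjamini-Hochberg adjustment over all genes, threshold 0.05). The self-test on simulated data with 19938 genes found 31.8% of the changes of size 0.5 and 89.0% of those of size 1 (log2). Far fewer genes were changed in each simulated run than the 2355 that passed in the data, and variances were drawn from the fitted prior. These shares are therefore not the power for single receptors such as Ccr7, whose SE was 0.58. Figures used matplotlib 3.10.9.

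The members and lists were chosen with earlier results of these data known. The rule names every receptor found, up to 4 genes past the test per list, chromosomal neighbours, the first 2 markers of a cell type and the 3 nearest profiles of receptors differing by at least 1. Other list genes named were chosen after their values were seen. Ly6c2 is not analysed here. Arrays were left out in turn, and normalization, row choice, dim genes, the variance model and a replicate block were varied. There are no detection calls, and precision is limited by the number of arrays.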

Additional observations from a re-analysis of the deposited data

How the results depend on the processing

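Of 91 values of the 7 receptor genes under 13 alternatives each, 86 kept their direction and their side of the threshold, 1 lost the call, 3 gained one and 1 reversed. Ccr2 lost its call in the unmoderated test (-2.00, adjusted p = 0.0525), while Cx3cr1 and Cxcr4 kept theirs in all 13. The reversal was Ccr7 without Con A replicate 3, at -0.27 against 0.32, and neither value passed the test (0.83 without PBS replicate 3). The gains were Ccr1 and Ccrl2 without PBS replicate 3 and Ccrl2 with the replicate number as a block (adjusted p = 0.0288). The count of receptor genes past the test was 3, and 3 to 5 with 1 array left out. The count of all genes past it was 2355, 671 in the unmoderated test, and 1140 to 2765 with 1 array left out. The unmoderated test gave 0 ligand genes, 5 signalling genes, 1 other receptor gene and 1 classical and 1 nonclassical monocytic marker, and the cause was not tested. The lists of ligands, signalling genes, other receptors and monocytic markers were recounted, as alternatives chosen after seeing the data.

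With the replicate block 4 receptor genes and 2539 genes in all passed, 9 signalling genes fell and 1 rose, and 6 classical monocytic markers fell and 1 rose. Deviations of same-numbered arrays from their group means correlated at 0.23, -0.17 and 0.56 over all genes. The value of the third arrays was the highest of all pairs, and PBS replicate 2 correlated at 0.54 with Con A replicate 1. The labels give a repeat number, and these correlations cannot decide whether same-numbered samples were paired. With the block the SE of Ccr7 was 0.11 against 0.58 (limma adjusted p = 0.115 against 0.8).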

Other observations

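Ccr3, the eotaxin receptor gene, varied with the eosinophil markers within each group. It was at 8.06, 8.96 and 8.28 in PBS replicates 1, 2 and 3 and at 9.43, 8.76 and 9.37 in the Con A arrays. The mean level of 8 eosinophil and basophil markers was 7.89, 8.52 and 8.30 and then 9.20, 8.60 and 9.46 in the same order. In both measures replicate 2 was the highest PBS array and the lowest Con A array. Of the 8 markers, 4 rose and 0 fell, Siglecf by 0.67, Epx by 1.13, Prg2 by 1.05 and Gata2 by 0.85 (limma adjusted p = 0.0379, 0.0459, 0.0418 and 0.0468). All 4 lay close to the threshold, with gaps between the groups of 0.05 to 0.15. This list was not recounted with an array left out. Over all genes 4.59% were higher and 7.22% lower. The difference of Ccr3, 0.75, missed the threshold (adjusted p = 0.121).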
